A study of Mus musculus with 6 samples.

Results

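Among 20239 named genes read in mouse heart ventricle, the 10 described here encode the insulin-like growth factors, their receptors and their binding proteins: Igf1, Igf2, Igf1r, Igf2r, Igfbp2, Igfbp3, Igfbp4, Igfbp5, Igfbp6 and Igfbp7. They were taken by gene symbol, and each of the 10 had 1 probe set. The set was chosen by symbol with the log2 values of the arrays labelled Hspa4-/- against the wild-type arrays in view, so the members' values in that contrast are a description and carry no test. The RNA came from 6 mice of the 129/Sv strain at 3.5 weeks of age, all labelled male, 3 wild type (Hspa4+/+) and 3 labelled as lacking the chaperone gene Hspa4 (Hspa4-/-). The labels give no operation or drug for any animal, and they do not describe the Hspa4 allele. Each value is the log2 signal of a probe set on 1 Affymetrix Mouse Gene 1.0 ST array, so a difference of 1 is a doubling of signal, and levels of different probe sets are not comparable.

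IGF1 and IGF2 are secreted peptides that act through the tyrosine kinase receptor encoded by Igf1r, which signals through PI3K and AKT to growth and survival and is known for promoting cardiomyocyte growth. The receptor encoded by Igf2r has no such kinase and carries IGF2 to lysosomes. The binding proteins hold IGFs in blood and matrix, extend their half-life or keep them from the receptor, and proteases that cut them release the ligand.

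Hspa4 itself set 1 array apart. The array labelled Hspa4-/- replicate 1 read 9.33, while replicates 2 and 3 read 6.63 and 6.75 and the wild-type arrays lay between 9.48 and 9.74. Xist, expressed from the inactive X of female cells, read 7.68 on that array and from 5.51 to 5.69 on the others. Those values go against its genotype and sex labels, and whether samples were mixed up cannot be settled from them. Group means and differences on 6 arrays include that array, so group differences are given on 6 arrays and on the 5 left without it. The ventricular cardiomyocyte markers were 10 genes such as Myl2 and Tnnt2. They averaged 12.05 to 12.18 on the arrays labelled Hspa4-/- and 11.91 to 11.99 in wild type. All 10 had higher means on the arrays labelled Hspa4-/-, on 6 arrays and on 5. The groups did not overlap for 60% of them on 6 arrays and 70% on 5, beside 15.1% and 33.3% of all genes. The part of these cells in the members' differences was not tested. The 7 atrial and conduction markers averaged 6.22 to 6.33 over all 6 arrays.

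On 6 arrays 7 of the 10 IGF family genes had a higher mean on the arrays labelled Hspa4-/- and 3 a lower one. The groups did not overlap for 4 of them, where Igf2, Igf2r and Igfbp3 were higher and Igfbp6 lower. Of all genes 15.1% had no overlap, 6.08% higher and 9.07% lower. On 5 arrays Igf1r and Igfbp7 joined them, making 5 higher and 1 lower, beside 33.3% of all genes without overlap, 14.4% higher and 18.9% lower. In limma's model over all genes (Benjamini-Hochberg, adjusted p under 0.05) 0 members passed on 6 arrays, where 0% of genes did. On 5 arrays 2 members, Igfbp3 and Igfbp6, passed, where 0.44% did. That count was 4 without wild-type replicate 2, when Igf1r and Igf2 passed too, and 0 without any 1 of the other 4 arrays or with array medians subtracted. Because this contrast was known when the members were proposed, nothing is read from these counts. The median difference over the members was 0.13 in both forms, and over all genes it was -0.009 on 6 arrays and -0.018 on 5.

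**Figure D1:**
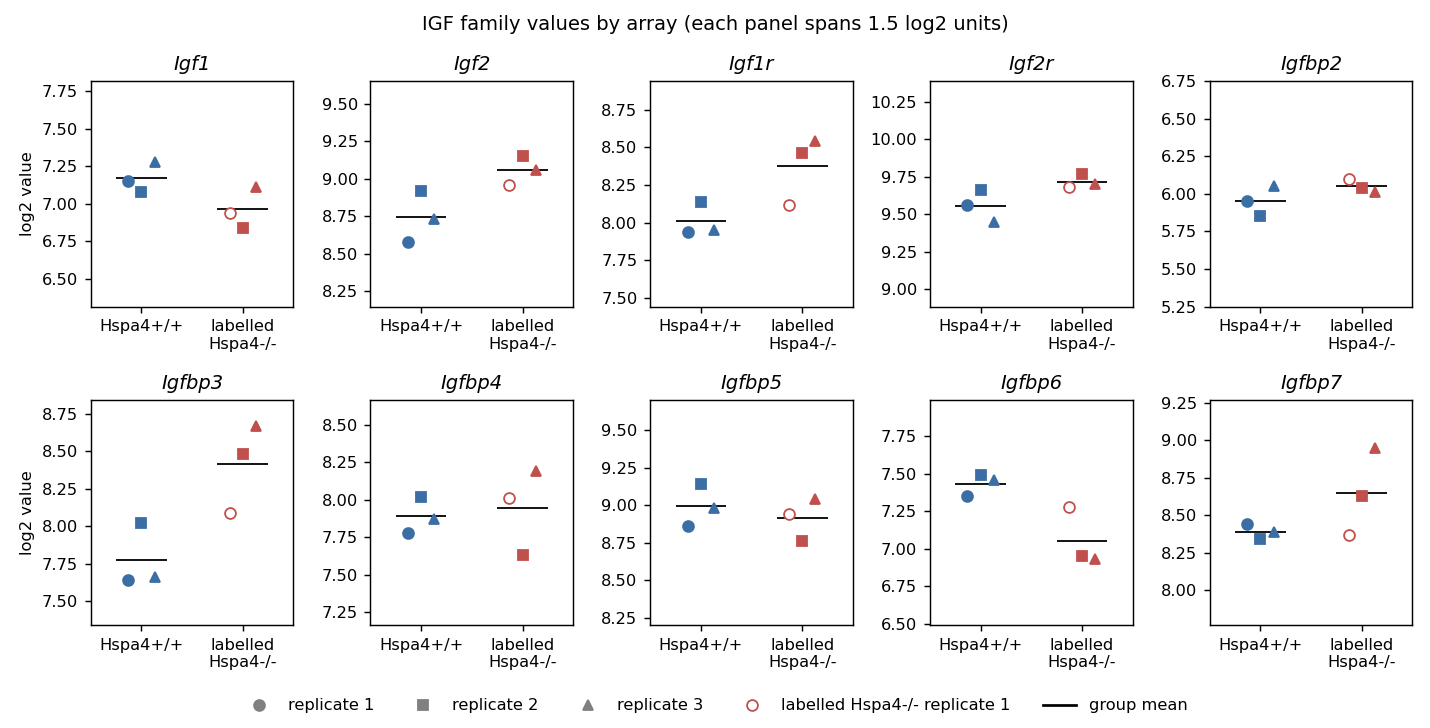
Log2 value of each IGF family gene (y axis, each panel spanning 1.5 units) on the wild-type arrays (blue) and the arrays labelled Hspa4-/- (red), with marker shapes for replicate numbers, an open circle for the array labelled Hspa4-/- replicate 1 and a bar at each group mean. Igfbp3 spans 1.03 over the 6 arrays, and the open circle lies nearest the wild-type mean of the 3 red points in 7 of 10 panels.

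The 2 ligand genes differed in opposite directions. Igf2, the paternally expressed ligand whose RNA declines after birth in most mouse tissues, read 8.96, 9.15 and 9.06 on the arrays labelled Hspa4-/- replicates 1 to 3. The wild-type arrays read 8.58, 8.92 and 8.73. All 3 arrays labelled Hspa4-/- lay above the wild-type ones, by 0.04 at the closest. The group means were 9.05 ± 0.09 and 8.74 ± 0.17 (SD, n = 3 each), a log2 difference of 0.31 (SE 0.09), and 0.36 (SE 0.10) on 5 arrays. Igf1, the ligand that growth hormone induces, read 6.94, 6.84 and 7.11 on the arrays labelled Hspa4-/- and 7.15, 7.08 and 7.28 in wild type. The groups overlapped by 0.02, since replicate 3 of the arrays labelled Hspa4-/- stood above wild-type replicate 2. The Igf1 difference was -0.21 (SE 0.09) on 6 arrays and -0.20 (SE 0.10) on 5. On 5 arrays it was -0.07 without the array labelled Hspa4-/- replicate 2 and -0.33 without replicate 3. Macrophages are a known source of Igf1, and 7 of 10 macrophage and monocyte markers on 6 arrays and 6 of 10 on 5 also had lower means. That list averaged 7.18 to 7.26 on the arrays labelled Hspa4-/- and 7.28 to 7.34 in wild type. In either form 0 of the 10 passed (limma), with 3 lower and 1 higher at an unadjusted p under 0.05. Of all genes 11.2% reached that level on 6 arrays and 14.9% on 5, and 9.07% and 18.9% were lower without overlap. Mrc1, Csf1r, Adgre1 and Cd68 were lower without overlap, with differences of -0.50, -0.23, -0.21 and -0.07 on 6 arrays and -0.45, -0.28, -0.21 and -0.08 on 5. The complement gene C1qc had a higher mean, by 0.21 on 6 arrays with overlap and 0.27 on 5 without, and Cx3cr1 by 0.11 with overlap and 0.18 without. The part of these cells in the Igf1 difference was not tested. The marker lists were chosen with earlier results of these data known, so nothing is read from their counts. In RNA from whole ventricle, fewer cells of a type and less RNA per cell cannot be told apart.

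Both receptor genes had higher means on the arrays labelled Hspa4-/-. Igf1r, the signalling receptor, read 8.12, 8.46 and 8.54 there against 7.94, 8.14 and 7.95 in wild type. Replicates 2 and 3 were the 2 highest arrays, and replicate 1 lay just under wild-type replicate 2. The difference was 0.36 (SE 0.11) on 6 arrays. It was 0.49 (SE 0.08), or 1.40-fold, on 5 arrays, with 0.32 between the closest arrays of the 2 groups. Igf2r, the clearance receptor, read 9.68, 9.77 and 9.70 on the arrays labelled Hspa4-/- and 9.56, 9.66 and 9.45 in wild type. Its groups were 0.03 apart at the closest, and the difference was 0.16 (SE 0.07), or 0.18 (SE 0.08) on 5 arrays.

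Igfbp3 had the largest difference of the 10. It encodes the main carrier of IGFs in serum, where it forms a complex with the acid-labile subunit. Its values were 8.09, 8.48 and 8.67 on the arrays labelled Hspa4-/- and 7.64, 8.02 and 7.66 in wild type. The groups were 0.07 apart at the closest, between wild-type replicate 2 and the array labelled Hspa4-/- replicate 1, and 0.46 apart on 5 arrays. The means were 8.42 ± 0.29 and 7.77 ± 0.22 (SD, n = 3 each), a difference of 0.65 (SE 0.15), or 1.56-fold. On 5 arrays it was 0.81 (SE 0.12). Of all genes, 99.9% had a smaller absolute difference on 5 arrays, a description only, since this contrast was known when the members were proposed. The SD of Igfbp3 over the wild-type arrays was also large, above that of 96.1% of genes.

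Igfbp6 had the largest lower difference, and it encodes the binding protein that prefers IGF2 to IGF1. It read 7.28, 6.95 and 6.93 on the arrays labelled Hspa4-/- and 7.35, 7.49 and 7.46 in wild type. Replicates 2 and 3 lay close together, 0.39 under the lowest wild-type array, and replicate 1 lay 0.07 under it. The means were 7.05 ± 0.19 and 7.43 ± 0.08 (SD, n = 3 each), a difference of -0.38 (SE 0.10) on 6 arrays and -0.49 (SE 0.07) on 5.

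The promoters of Igfbp3 and Igfbp6 are shown because these genes had the largest differences in the 2 directions. Each line gives the 250 bases before the annotated start, from RefSeq (GRCm38.p6), 5′ to 3′ on the gene's strand with CpG dinucleotides in capitals.
Igfbp3 promoter: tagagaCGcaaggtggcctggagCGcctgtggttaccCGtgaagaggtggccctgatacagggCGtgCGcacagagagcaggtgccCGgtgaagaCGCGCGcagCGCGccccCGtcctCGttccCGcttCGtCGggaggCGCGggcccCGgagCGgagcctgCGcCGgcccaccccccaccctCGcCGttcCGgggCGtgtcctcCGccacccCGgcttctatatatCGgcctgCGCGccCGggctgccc
Igfbp6 promoter: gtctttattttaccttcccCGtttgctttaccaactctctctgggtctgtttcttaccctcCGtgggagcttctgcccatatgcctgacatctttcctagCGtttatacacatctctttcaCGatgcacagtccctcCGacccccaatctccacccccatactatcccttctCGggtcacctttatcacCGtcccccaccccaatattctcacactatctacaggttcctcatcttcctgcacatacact
The Igfbp3 stretch lies at chr11:7213924-7214173 on the minus strand and the Igfbp6 stretch at chr15:102143936-102144185 on the plus strand. Igfbp3 had 32 CpGs and 73.2% G+C, and 95.4% of the 32851 mouse promoter windows of this length had fewer CpGs. Igfbp6 had 7 CpGs and 49.6% G+C, near the medians over all windows of 6 CpGs and 52.4%. All 10 family genes had at least 1 window, 14 in all, with 1 to 42 CpGs, the most at Igf1r. Igf2 had 4 windows for separate starts, which its single probe set does not tell apart. On either strand the letters TATAAA occurred in 2 of the 14 (Igfbp4 and Igfbp6) and in 12.4% of all windows, and GGGCGG occurred in 6 of 14 and in 32.7%. The forkhead motif TGTTTAC occurred in 0 of 14 (3.17% of all windows), and GAANNTTC, a core of heat shock elements, in 1, at Igfbp5 (6.69%). These matches describe the letters only.

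Epicardial and mesothelial markers moved on the same arrays as Igfbp6. All 6 of that list were measured, and all 6 had lower means on the arrays labelled Hspa4-/- in both forms. On 5 arrays 5 of 6 did not overlap, where 18.9% of all genes were lower without overlap. On 6 arrays 2 of 6 did not overlap, beside 9.07% of all genes. At the limma threshold 2 markers fell on 5 arrays, where 0.44% of all genes passed in either direction. These were the uroplakin genes Upk3b (-0.78, SE 0.09; limma, adjusted p = 0.0173) and Upk1b (-0.90, SE 0.13; limma, adjusted p = 0.033). On 6 arrays they differed by -0.56 and -0.73, and 0 of the 6 passed (limma). At an unadjusted p under 0.05 there were 3, beside 11.2% of all genes. The other markers without overlap on 5 arrays were Lrrn4 (-0.35, and -0.31 on 6 arrays), Krt19 (-0.22 and -0.15) and Wt1 (-0.14 and -0.10), of which only Lrrn4 did not overlap on 6. Without any 1 of the 5 arrays except wild-type replicate 2, neither uroplakin gene passed. With array medians subtracted Upk1b did not pass (limma, adjusted p = 0.0568). Over 13 alternatives the adjusted p on 5 arrays ran from 0.003 to 0.144 for Upk3b and from 0.00245 to 0.228 for Upk1b. The list averaged 6.12 to 6.14 on the arrays labelled Hspa4-/- replicates 2 and 3, 6.44 on replicate 1 and 6.43 to 6.61 in wild type. A log2 array value has no zero, so no marker could be read as absent. The part of these cells in the Igfbp6 difference was not tested. The epicardial list was chosen with earlier results of these data known, so nothing is read from its counts. The 10 fibroblast markers averaged 8.29 to 8.49 on the arrays labelled Hspa4-/- and 8.31 to 8.35 in wild type, so the list averages overlapped. Of these markers Ddr2 was lower without overlap in both forms (-0.28 on 6 arrays and -0.26 on 5). Tcf21 was higher, with overlap on 6 arrays (0.13) and without on 5 (0.23).

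Igfbp7, a secreted protein of vessel walls that binds IGFs weakly, was higher on 2 arrays only. It read 8.37, 8.63 and 8.95 on the arrays labelled Hspa4-/- and 8.44, 8.34 and 8.39 in wild type. Replicate 1 lay inside the wild-type range, whose SD was 0.05, and replicate 3 stood 0.56 above the wild-type mean. The difference was 0.26 (SE 0.12) on 6 arrays and 0.40 (SE 0.10), or 1.32-fold, on 5. Without the array labelled Hspa4-/- replicate 3 it was 0.11 on 6 arrays and 0.24 on 5. The 10 endothelial markers averaged 8.70 to 8.82 on the arrays labelled Hspa4-/- and 8.60 to 8.68 in wild type. The 10 smooth muscle and pericyte markers averaged 8.37 to 8.47 on replicates 2 and 3, 8.30 on replicate 1 and 8.27 to 8.33 in wild type. In either form 0 of either list passed (limma). On 5 arrays 3 endothelial markers, all higher, and 6 mural markers, 5 higher and 1 lower, had an unadjusted p under 0.05. On 6 arrays 2 endothelial markers were higher at that level, and 3 mural markers higher and 1 lower. Of all genes 14.9% reached it on 5 arrays and 11.2% on 6. On 5 and 6 arrays 40% and 20% of the endothelial markers did not overlap, and 70% and 40% of the mural. Of all genes 33.3% and 15.1% did not overlap. The endothelial markers without overlap on 5 arrays were Egfl7 (0.27, and 0.33 on 6 arrays), Vwf (0.23 and 0.24), Cdh5 (0.14 and 0.09) and Pecam1 (0.12 and 0.04), all higher. Cdh5 and Pecam1 overlapped on 6 arrays. Lower means were seen for 3 endothelial markers, all with overlap in both forms. They were Kdr (-0.16 on 5 arrays and on 6), Tek (-0.12 and -0.15) and Erg (-0.03 and -0.06). Of the mural markers, Pdgfrb (0.33 and 0.29), Acta2 (0.36 and 0.16), Rgs5 (0.20 and 0.11), Cspg4 (0.23 and 0.25), Notch3 (0.24 and 0.26) and Tagln (0.18 and 0.10) were higher without overlap on 5 arrays. Acta2, Rgs5 and Tagln overlapped on 6 arrays. Abcc9, a subunit of potassium channels, was lower without overlap in both (-0.26 on 5 arrays and -0.20 on 6). Kcnj8 had a lower mean in both forms (-0.11 on 5 arrays and on 6), with overlap. Myh11 had a lower mean on 6 arrays only (0.10 on 5 arrays and -0.01 on 6), also with overlap. The part of endothelial and mural cells in the Igfbp3 and Igfbp7 differences was not tested. Both lists were chosen with earlier results of these data known, so nothing is read from their counts.

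The other 3 binding proteins overlapped between groups. Igfbp4, which the protease PAPP-A cuts to release IGF, read 8.01, 7.63 and 8.19 on the arrays labelled Hspa4-/- and 7.78, 8.02 and 7.87 in wild type. Its highest and lowest arrays both carried the Hspa4-/- label, and the difference was 0.06 (SE 0.13), or 0.02 (SE 0.15) on 5 arrays. Igfbp5, which binds extracellular matrix, read 8.94, 8.76 and 9.04 against 8.86, 9.14 and 8.98, a difference of -0.08 (SE 0.10), or -0.10 (SE 0.11) on 5 arrays. Igfbp2, the neighbour of Igfbp5 on chromosome 1, read 6.10, 6.04 and 6.01 against 5.95, 5.85 and 6.05, a difference of 0.10 (SE 0.07), or 0.08 (SE 0.08) on 5 arrays. The direction of Igfbp4 turned without the array labelled Hspa4-/- replicate 3, at -0.07 on 6 arrays and -0.26 on 5, and lay at -0.03 under array weights on 6 arrays and, on 5, under quantile normalisation, the replicate block and without wild-type replicate 1. Igfbp5 turned to 0.04 on 5 arrays without the array labelled Hspa4-/- replicate 2.

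**Figure D2:**
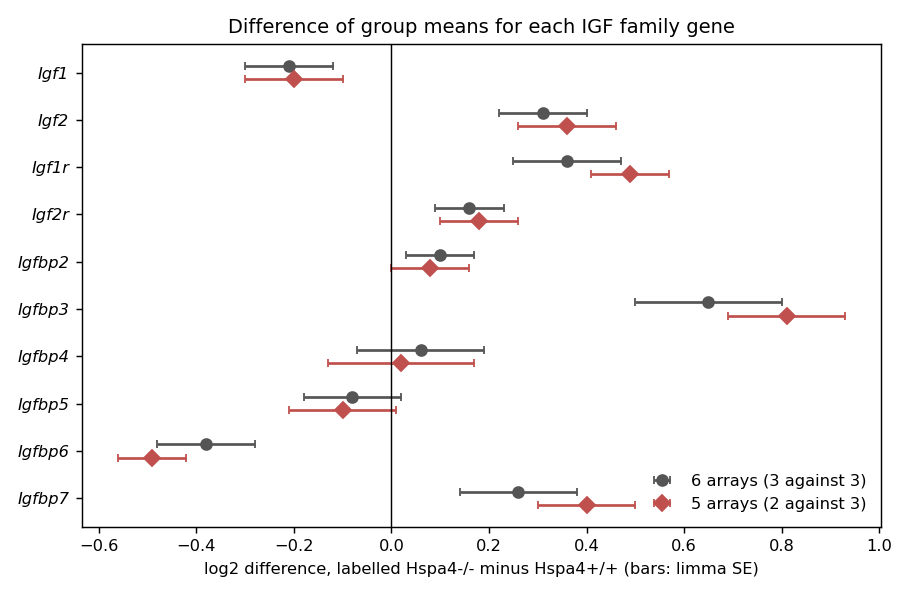
Difference of mean log2 value, arrays labelled Hspa4-/- minus wild type (x axis), for the 10 genes on 6 arrays (grey circles) and on 5 arrays (red diamonds), with limma's standard error as bars. Igfbp3 lies farthest to the right at 0.65 and 0.81, Igfbp6 farthest to the left at -0.38 and -0.49, and the bars of Igfbp4 and Igfbp5 cross 0.

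Within the wild-type group alone, the members varied unequally. The SD over the 3 wild-type arrays was 0.22 for Igfbp3 and 0.17 for Igf2, while the median over all genes was 0.0815 and 95% of genes lay under 0.203. It was 0.05 for Igfbp7 and 0.08 for Igfbp6. Wild-type replicate 2 was the highest wild-type array for 7 of the 10 members, all but Igf1, Igfbp2 and Igfbp7. For Igf2, Igf2r and Igfbp3 it stood between the other wild-type arrays and the arrays labelled Hspa4-/-. Without it the Igfbp3 difference on 5 arrays was 0.93, the Igf2 difference 0.45 and the Igf1r difference 0.55.

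Members were also set against each other by the mean gap between their profiles, after each was centred on its mean over the 6 arrays. Of the 45 pairs, Igf2 with Igf2r (0.08) and Igf2 with Igf1r (0.09) had the smallest gaps, followed by Igfbp4 with Igfbp5 (0.10). Igfbp3 with Igfbp6 had the widest (0.52). The first trio was lowest on wild-type replicates 1 and 3. The Igfbp4 and Igfbp5 pair shared its lowest array, labelled Hspa4-/- replicate 2, and had wild-type replicate 2 as the highest wild-type array.

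The same measure was used to find the genes most like each member among all 20239, for the 6 members whose values spanned more than 0.5. Nearest to Igfbp3 were Perp, Qsox1, Rasd2, Gata6 and Irx4, with mean gaps of 0.059 to 0.076 where the median gene had 0.345. Gata6 and Irx4 encode cardiac transcription factors. Irx4 read 8.24, 8.56 and 8.81 on the arrays labelled Hspa4-/- and 7.68, 8.36 and 7.87 in wild type, so like Igfbp3 it was highest on replicate 3. Nearest to Igfbp6 were Tmem50b, Gabrg3, Thrb, Art1 and Osbpl6 (gaps of 0.019 to 0.051), and Thrb encodes a thyroid hormone receptor. Nearest to Igfbp7 were Tln2, Lyrm4, Cul7, Vmn1r14 and Lamb1 (0.012 to 0.041), with 2 unnamed models passed over. Tln2, which encodes the integrin linker talin 2, read 7.84, 8.09 and 8.44 on the arrays labelled Hspa4-/- and 7.82 to 7.91 in wild type.

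Nearest to Igf1r were Cnnm3, Usp22, Bcam, Rnf166 and Tbc1d20 (0.029 to 0.033), and nearest to Igf2 were Napa, Phkg2, Mxd4, Gata2 and Ehd1 (0.025 to 0.036). Nearest to Igfbp4 were Adam19, Atg4d, Gsn, Cad and Errfi1 (0.035 to 0.053), of which Gsn was on the fibroblast list. With 6 arrays, many genes can share a profile, and these gaps carry no test.

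**Figure D3:**
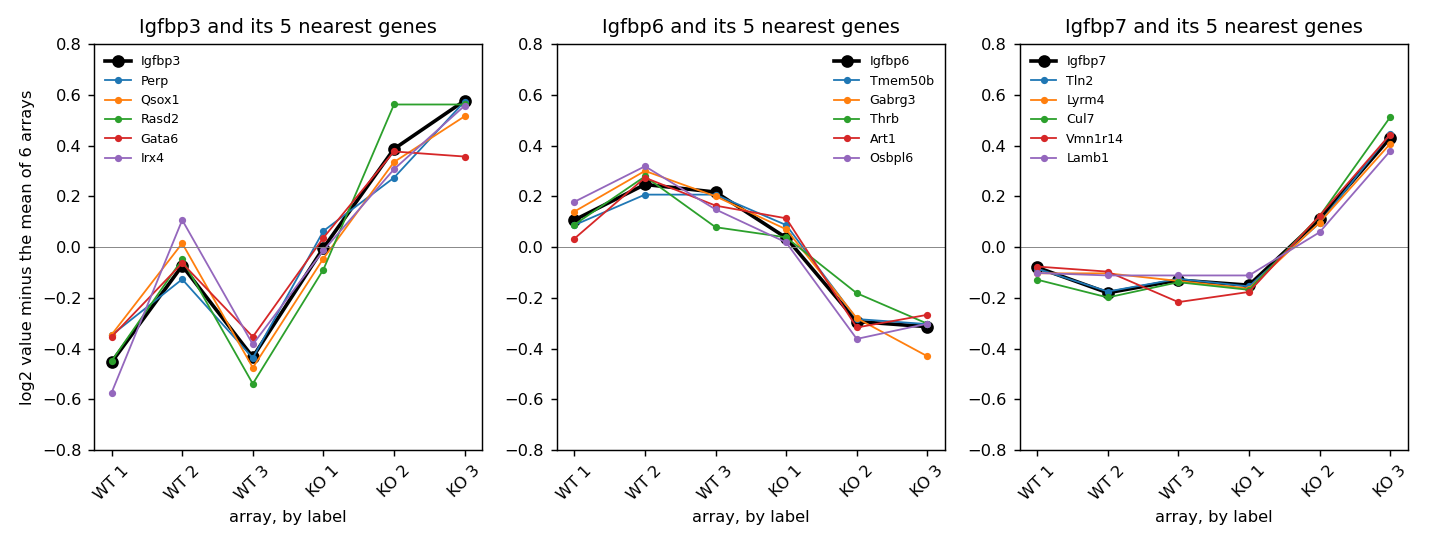
Log2 value minus the gene's mean over 6 arrays (y axis) on each array (x axis; WT, wild type; KO, labelled Hspa4-/-; the number is the replicate) for Igfbp3, Igfbp6 and Igfbp7 in black and their 5 nearest genes in colour. Lines only join the points of a gene. Igfbp7 and its neighbours are flat over the wild-type arrays and the array labelled Hspa4-/- replicate 1, while Igfbp3 and Igfbp6 have that array between the groups.

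Genes around the family were tested as 5 lists of 103 measured genes, of 108 listed. These lists were chosen with earlier results of these data known, so nothing is read from their counts. On 6 arrays 0 of the 103 passed (limma), and 20 had an unadjusted p under 0.05, while 0 of all 20239 genes passed and 2261 (11.2%) did at the unadjusted level. On 5 arrays 1 of the 103 passed and rose, which is 0.971% beside 0.44% of all genes, and 25 had an unadjusted p under 0.05, beside 14.9% of all genes. The groups did not overlap for 19.4% of the 103 on 6 arrays and 35% on 5, beside the 15.1% and 33.3% of all genes.

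Outside the cell and at the IGF loci, 0 of 21 genes passed in either form (limma), with 4 at an unadjusted p under 0.05 in each, all higher. This list holds the remaining classical binding protein gene Igfbp1, the proteases Pappa and Pappa2 and their stanniocalcin inhibitors. Its median difference was 0.04 on 6 arrays and 0.02 on 5. Of all genes 11.2% had an unadjusted p under 0.05 in either direction on 6 arrays and 14.9% on 5. H19, the noncoding RNA expressed from the maternal copy of the imprinted Igf2 locus, read 7.42, 7.60 and 7.85 on the arrays labelled Hspa4-/- and 7.39, 7.33 and 7.17 in wild type. All 3 arrays labelled Hspa4-/- were above wild type, as for Igf2, with differences of 0.32 on 6 arrays (SE 0.11; limma, adjusted p = 0.308) and 0.43 on 5 (SE 0.10; limma, adjusted p = 0.0999). The matricellular genes Ccn4 and Ccn2 had the smallest p on 6 arrays, with differences of 0.28 (SE 0.08; limma, adjusted p = 0.247) and 0.53 (SE 0.16; limma, adjusted p = 0.269). On 5 arrays they were 0.33 and 0.54 (limma, adjusted p = 0.0991 and 0.213). Ccn2 read 8.78 on wild-type replicate 2 against 8.15 and 8.10 on the other wild-type arrays, and 8.83 to 8.93 on the arrays labelled Hspa4-/-.

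In the growth hormone axis, which controls Igf1, 0 of 12 genes passed in either form (limma), and the medians were 0.05 and 0.04. The receptor gene Ghr read 10.35, 10.31 and 10.29 on the arrays labelled Hspa4-/- and 10.62, 10.48 and 10.59 in wild type. It was lower on all 3, the array labelled Hspa4-/- replicate 1 included, with a difference of -0.25 (SE 0.07; limma, adjusted p = 0.245) on 6 arrays and -0.26 (limma, adjusted p = 0.151) on 5. The phosphatase gene Ptpn1 differed by 0.17 (SE 0.07; limma, adjusted p = 0.415) and on 5 arrays by 0.19 (limma, adjusted p = 0.312). Of the insulin receptor family and its adaptors 0 of 18 passed in either form (limma), with a median of 0 in both. On 6 arrays the docking protein gene Gab1 had a difference of 0.33 (SE 0.10), with an adjusted p of 0.271 in limma. The adaptor gene Shc1 had 0.22 (SE 0.08), with an adjusted p of 0.374 in limma. On 5 arrays these were 0.36 and 0.26 (limma, adjusted p = 0.176 and 0.25).

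Among PI3K, AKT and mTOR genes 0 of 28 passed in either form (limma), and the median was 0.08 on 6 arrays and 0.14 on 5. At an unadjusted p under 0.05 there were 8 higher and 1 lower on 6 arrays, and 8 higher and 0 lower on 5. Of all genes 11.2% reached that level in either direction on 6 arrays and 14.9% on 5. On 6 arrays the list's count in either direction ran from 5 to 13 when leaving out an array. Akt1, the kinase downstream of the IGF1 receptor, read 9.09, 9.22 and 9.44 on the arrays labelled Hspa4-/- and 8.85, 8.99 and 8.91 in wild type, without overlap. Its difference was 0.34 on 6 arrays (SE 0.09; limma, adjusted p = 0.25) and 0.42 on 5 (SE 0.09; limma, adjusted p = 0.0809). Eif4ebp1, the translation repressor that mTOR phosphorylates, read 8.42, 8.71 and 8.77 against 8.08, 8.39 and 7.83, a difference of 0.53 on 6 arrays (SE 0.14; limma, adjusted p = 0.245) and 0.64 on 5 (SE 0.14; limma, adjusted p = 0.0877). Over the alternatives the adjusted p on 5 arrays ran from 0.0358 to 0.37 for Akt1 and from 0.0086 to 0.327 for Eif4ebp1.

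Of the FOXO factors and genes they are known to induce, which AKT signalling restrains, 0 of 24 passed on 6 arrays and Bcl2l11 rose on 5 (limma). Bcl2l11, which encodes the pro-apoptotic protein BIM, read 7.54, 7.96 and 8.01 on the arrays labelled Hspa4-/- and 7.41 to 7.53 in wild type. Replicate 1 was only just above the wild-type arrays. The difference was 0.37 on 6 arrays (SE 0.12; limma, adjusted p = 0.29) and 0.52 on 5 (SE 0.07; limma, adjusted p = 0.031). The adjusted p ran from 0.0166 to 0.177 over 13 alternatives, and 8 of them passed. The call was lost with quantile normalisation (adjusted p = 0.0575) and when any 1 array other than wild-type replicate 2 was dropped. The adjusted p was then 0.0925 or 0.177 (arrays labelled Hspa4-/- replicate 2 or 3 dropped) and 0.152 or 0.144 (wild-type replicate 1 or 3 dropped). Klf15 differed by 0.41 on 6 arrays (SE 0.11; limma, adjusted p = 0.25) and 0.45 on 5 (limma, adjusted p = 0.163). The median over the list was 0.05 in both forms.

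**Figure D4:**
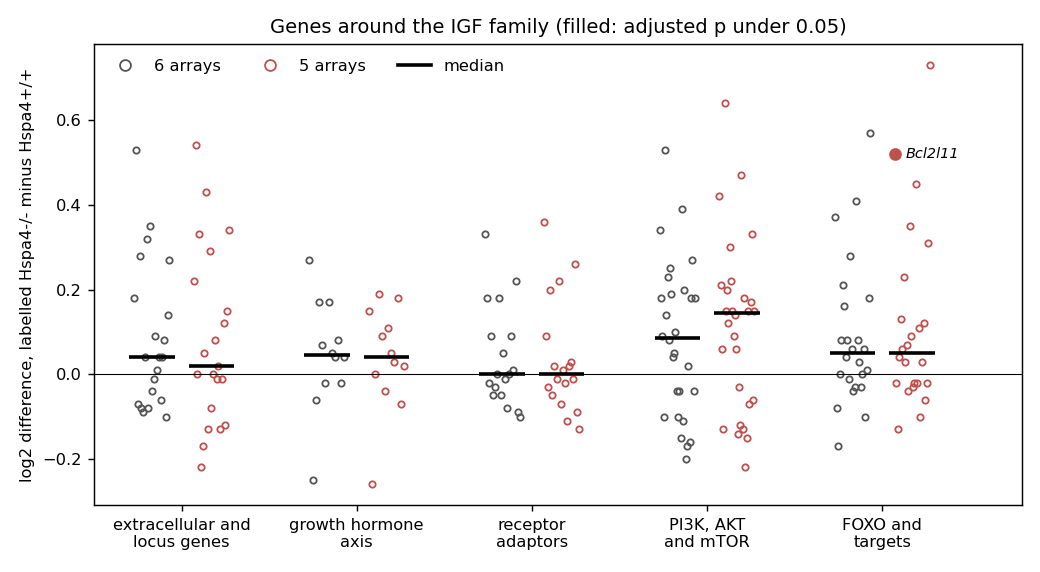
Difference of mean log2 value, arrays labelled Hspa4-/- minus wild type (y axis), for each measured gene of the 5 lists (x axis) on 6 arrays (grey) and 5 arrays (red), with black bars at the medians and filled points for an adjusted p under 0.05 (limma). Bcl2l11 on 5 arrays is the 1 filled point, and the PI3K, AKT and mTOR medians of 0.08 and 0.14 are the highest.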

How the data were processed

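Ventricle RNA was read on Affymetrix Mouse Gene 1.0 ST arrays, per the labels' protocols. The authors deposited a log2 value for every probe set on each array. The submitters' processing notes name R 2.13.0 and affy, and how background, normalisation and summary were done is not stated there. Of 21225 probe sets, 20239 carried 1 gene symbol in the platform's annotation, 986 carried none and 0 several. The number of arrays limits the precision.

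Groups came from the labels, and each array was taken to be 1 mouse. The 2 groups were compared in R 4.3.3 with limma 3.58.1, by lmFit and eBayes over all 20239 genes, with Benjamini-Hochberg adjustment, threshold 0.05, and no filter on low values. The fit was tested on simulated data, where only shifts larger than any member difference had to be recovered. Recovery at the size of the members' differences is not given here. The members and gene lists were chosen with earlier results of these data known. Of the lists, 5 were pathways and 13 cell type markers. Text names the members, Hspa4 and Xist, the passing or otherwise the 2 lowest-p genes of each pathway list, the 5 nearest profiles of members spanning over 0.5, and markers without overlap where a list moved with a member. Endothelial and mural markers with lower means and fibroblast markers without overlap are named too. Predicted genes were not named. Of the marker lists, those for lymphocytes and neutrophils, erythroid cells, skeletal muscle, adipocytes, Schwann cells and neurons, and hepatocytes gave 0 passing genes in either form. Alternatives were normalisation, low-value filters, array weights, variance priors, the replicate block and leaving out arrays.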

Additional observations from a re-analysis of the deposited data

How the results depend on the processing

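The count of genes past the threshold on 6 arrays was 0, and became 2 with either low-value filter, 115 with array weights, 2 with the replicate block and from 0 to 112 when leaving out an array. On 5 arrays it was 89, and became 36 with array medians subtracted, 156 and 167 without the lowest 25% and 50% of genes, 321 with array weights, 134 with the replicate block and from 2 to 875 when leaving out an array (875 without wild-type replicate 2). Samples share only a number: same-numbered arrays had deviations correlated at -0.17, 0.09 and -0.25. Pairs with different numbers ran from -0.16 to 0.33, the highest for the array labelled Hspa4-/- replicate 1 with wild-type replicate 3. Counts of passing list genes when leaving out an array ran on 6 arrays from 0 to 1 for the extracellular and locus genes and for the FOXO list. On 5 arrays they ran from 0 to 3 for both of these, from 0 to 1 for the growth hormone axis and for the receptor adaptors, and from 0 to 4 for the PI3K, AKT and mTOR genes, of which array weights gave 2. The FOXO count on 5 arrays was 0 with quantile normalisation. The cause was not tested. For the members, 268 differences under these alternatives moved by less than the SD between replicates, and 7 changed sign, all in Igfbp4 or Igfbp5. Leaving out an array cannot move a difference by that SD, and low-value filters and variance priors do not alter a difference. The size of these moves therefore says little about stability. The filter at 50% left out Igfbp2. Of the members 3, Igf1r included, passed on 5 arrays with either filter or array weights, and Igfbp3 passed on 6 arrays with array weights. The array labelled Hspa4-/- replicate 1 taken alone differed from the wild-type mean by 0.32 for Igfbp3, -0.15 for Igfbp6 and -0.02 for Igfbp7, values added after the data were seen.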
